A study of Mus musculus with 7 samples.

Results

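Gene expression was compared between cardiac fibroblasts of 30-day-old and 7-day-old mice that carried the same lineage trace, Tcf21MCM;R26eGFP. The comparison took in 5 of the 7 libraries of the series, chosen by the genotype and age in their labels: 3 libraries at 30 days (Tcf21 P30) and 2 at 7 days (Tcf21 P7). Of 54735 gene symbols in the table, 17636 had enough counts to be tested. In these mice the Tcf21 gene drives MerCreMer, a Cre recombinase that needs tamoxifen to act, and R26eGFP is a reporter that recombination turns on, so that a cell is green if it used the Tcf21 promoter while tamoxifen was present. The sources used here do not give the time of tamoxifen, and cells of other types that once used the promoter would be marked as well. Green cells of male and female hearts, pooled, were sorted by flow cytometry, their RNA was isolated with a column kit for small samples, and libraries were read on an Illumina HiSeq. The remaining 2 libraries, of PostnMCM;R26eGFP cells at 7 days (Postn P7), entered the fit for its estimate of the spread, and their values are quoted where they help to place those of Tcf21 P7. No label ties replicate libraries to different mice or sorting days, so the p-values measure the spread between libraries, part of which may be technical.

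Fibroblasts build the connective tissue of the heart. They arise largely from the epicardium, carry the transcription factor Tcf21 and the growth factor receptor Pdgfra, and secrete the collagens, elastic fibres and proteoglycans between the muscle cells. The weeks after birth are the time when the rodent heart leaves growth by cell division, when the collagen network is laid down, and when tissues come under the control of adult hormone levels. Periostin, the product of Postn, is a matricellular protein, one that modifies the matrix without forming its scaffold, and is known from growing and injured connective tissue.

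The Tcf21 libraries held 15959931 to 18519528 counts. Levels are given in CPM, which are counts divided by the scaled depth of the library and which depend on transcript length and are therefore compared between ages and not between genes. Along the first principal component, with 69.5% of the variance, all libraries of 30 days lay apart from those of 7 days. The second component, with 17.5%, spread the Tcf21 P30 libraries, with replicate 1 on one side and replicates 2 and 3 on the other. The Tcf21 P7 libraries were closer to each other (chi-squared per degree of freedom 3.43) than any pair of Tcf21 P30 libraries (9.90 to 38.1). Tcf21 P30 replicate 1 stood apart in transcripts of endothelial cells, the lining of blood vessels: 15 marker genes summed to 3938 CPM there, 1258 and 1402 CPM in replicates 2 and 3, and 1419 and 1234 CPM in Tcf21 P7. Results that rest on that library are given with and without it.

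The genes of the trace were examined first. Tcf21 (chr10:22817281-22820174, GRCm38) stood at 347 and 354 CPM in Tcf21 P7 and at 271, 391 and 352 CPM in Tcf21 P30. The groups overlapped, and the difference of -0.05 ± 0.16 on the log2 scale (here and below, P30 minus P7 with its standard error) did not pass the test (adjusted p = 0.82). Esr1, part of whose coding sequence lies in MerCreMer, gave 173 and 173 CPM at 7 days and 162, 225 and 208 CPM at 30 days (0.20 ± 0.15, adjusted p = 0.35). The Postn P7 libraries, whose mice carry MerCreMer in the Postn gene, gave 3.65 and 2.75 CPM for Esr1. How much of the Esr1 count comes from MerCreMer was not tested. Pdgfra stood at 856 and 853 CPM and then at 1056, 1306 and 1258 CPM, and its increase of 0.50 ± 0.13 passed (adjusted p = 0.025). That call was lost without Tcf21 P7 replicate 1 or 2 (adjusted p = 0.17 each) and without Tcf21 P30 replicate 2 (0.060) or 3 (0.085). Postn (chr3:54361109-54391037) was measured at 4258 and 4549 CPM in Tcf21 P7 and at 756, 907 and 821 CPM in Tcf21 P30, a fall of -2.41 ± 0.13 (adjusted p = 3.6e-05). The ages thus overlapped in Tcf21 and did not overlap in Postn. In bulk libraries, fewer cells that express a gene and less of its RNA per cell cannot be told apart, here and in every result below.

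At 30 days 2952 genes were higher (16.7% of those tested) and 2652 lower (15%), together 5604 (31.8%), by edgeR's quasi-likelihood test at an adjusted p under 0.05. These shares are the background against which the counts of every gene group are to be read. Below, higher, lower and called refer to genes that passed it. The median change of all genes tested was 0.03. Among the called genes 1414 rose and 1130 fell by at least 2-fold, and 323 rose and 155 fell by at least 8-fold. The libraries of the ages did not overlap for 61.8% of all genes tested. The genes called higher took 13.6% ± 0.0741 of all counts in Tcf21 P7 (SD, n = 2) and 25.8% ± 0.858 in Tcf21 P30 (SD, n = 3), while the genes called lower went from 29.0% ± 0.0212 to 16.7% ± 0.375. As these genes were called from the same libraries, the direction of both shifts follows from their selection. The number of calls depended on having both libraries of 7 days. With Tcf21 P7 replicate 1 or 2 removed, which takes the spread of the remaining one from the other groups, 2442 or 2418 genes were called, and with both summed to 1 library 2463. Of the 5604 genes, 1957 were called with each Tcf21 library left out in turn, 992 higher and 965 lower.

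**Figure D1:**
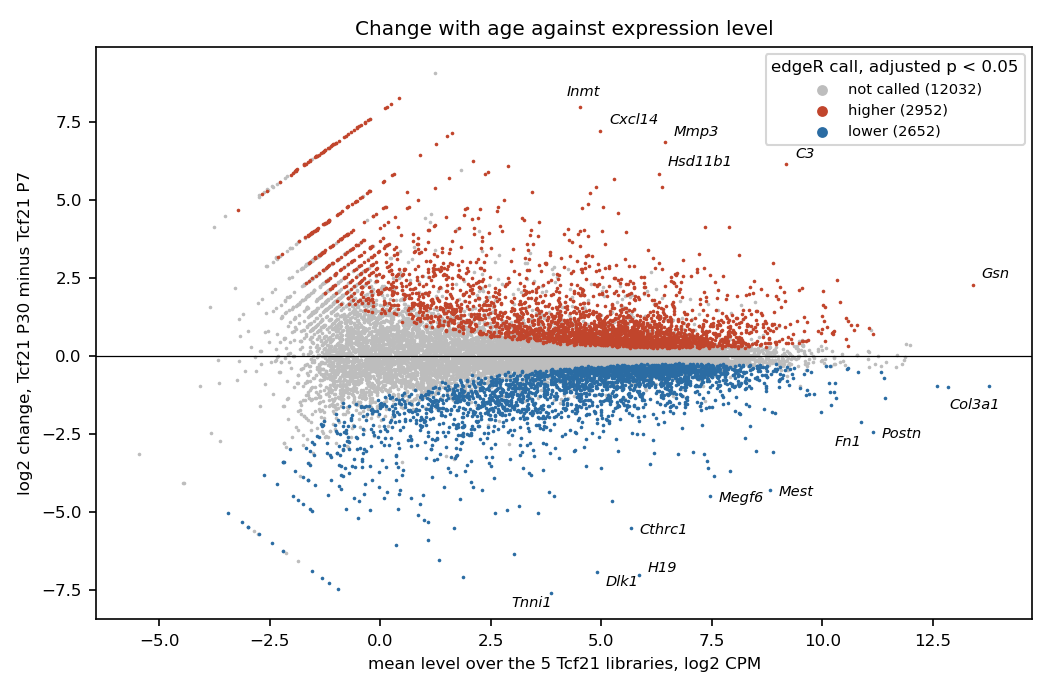
Change in expression from 7 to 30 days (vertical axis, log2) against the mean level over the 5 Tcf21 libraries (horizontal axis, log2 CPM), 1 point per gene, red for the 2952 genes called higher, blue for the 2652 called lower and grey for the rest. Named points are genes described in the text, and the slanted rows of points at the left are genes with few counts.

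The largest increases, ranked by log2 change, were mostly in genes with few counts at 7 days, which such a ranking favours. Inmt, a methyltransferase of small amines (chr6:55170626-55175043), was measured at 0.284 and 0 CPM in Tcf21 P7 and at 31.9, 41.5 and 40.6 CPM in Tcf21 P30 (7.98 ± 0.74, adjusted p = 0.00060). Cxcl14, a chemokine gene (chr13:56288643-56296551), rose from 0.227 and 0.462 CPM to 40.4, 57.3 and 59.4 CPM (7.22 ± 0.54). Mmp3, the matrix protease stromelysin 1 (chr9:7445822-7455975), rose from 1.53 and 0.923 CPM to 126, 174 and 133 CPM (6.87 ± 0.29, adjusted p = 2.1e-05). The libraries of the ages did not overlap in any of the 15 genes ranked here, which was a condition of the ranking. Inmt rested on so few counts at 7 days that its fitted change is no measure of the fold. C3, the central protein of complement (chr17:57203970-57228136), gave 17.7 and 9.0 CPM and then 830, 1048 and 994 CPM (6.16 ± 0.69, adjusted p = 0.0026). Hsd11b1, the enzyme that regenerates active glucocorticoid inside cells (chr1:193221634-193264075), gave 2.50 and 2.02 CPM and then 109, 153 and 129 CPM (5.84 ± 0.33). The other 10 of the 15 largest increases changed by 4.74 to 6.11. They were Lncpint, Gsta3, Ifi205, C7, Gdap10, Ppl, which encodes the plaque protein periplakin, Amy1, Zbtb16, Ptgs2, the inducible prostaglandin synthase, and Ifit1. Ifit1 was no longer called when Tcf21 P7 replicate 1 (adjusted p = 0.061) or 2 (0.069) was removed. Gsta3, Ifi205, Amy1 and Ifit1 belong to families of close copies among which counts per symbol may have been divided, and no source used here gives the strand on which Lncpint was counted.

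The largest decreases took in imprinted genes, matrix genes and genes of neither kind. Tnni1, the slow skeletal troponin I that the fetal heart uses (chr1:135779434-135810989), gave 37.6 and 34.6 CPM in Tcf21 P7 and 0.0631, 0.380 and 0.110 CPM in Tcf21 P30 (-7.58 ± 0.43, adjusted p = 4.8e-05). H19, an imprinted long non-coding RNA (chr7:142575529-142578143), fell from 142 and 141 CPM to 2.02, 0.761 and 0.550 CPM (-7.01 ± 0.38). Dlk1, an imprinted membrane protein of immature mesenchyme (chr12:109452823-109463336), fell from 76.4 and 71.1 CPM to 0.442, 0.824 and 0.550 CPM (-6.92 ± 0.24, adjusted p = 8.2e-06). All of these were near zero in all 3 libraries of 30 days. Cthrc1, a secreted protein of collagen-producing fibroblasts (chr15:39076932-39087121), went from 121 and 124 CPM to 2.34, 2.66 and 3.13 CPM, and with an adjusted p of 3.0e-06 it was among the best supported changes (-5.49 ± 0.16). The other 11 were Zim1, Plppr5, Cpa1, Col24a1, Adamts17, Megf6, Rps3a3, Igf2, Mest, Clca3a1 and Kcnj5, with changes of -5.02 to -3.89. Rps3a3 is a processed copy of a ribosomal protein gene and may share its reads. In all 15 the call held with any 1 Tcf21 library left out.

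**Figure D2:**
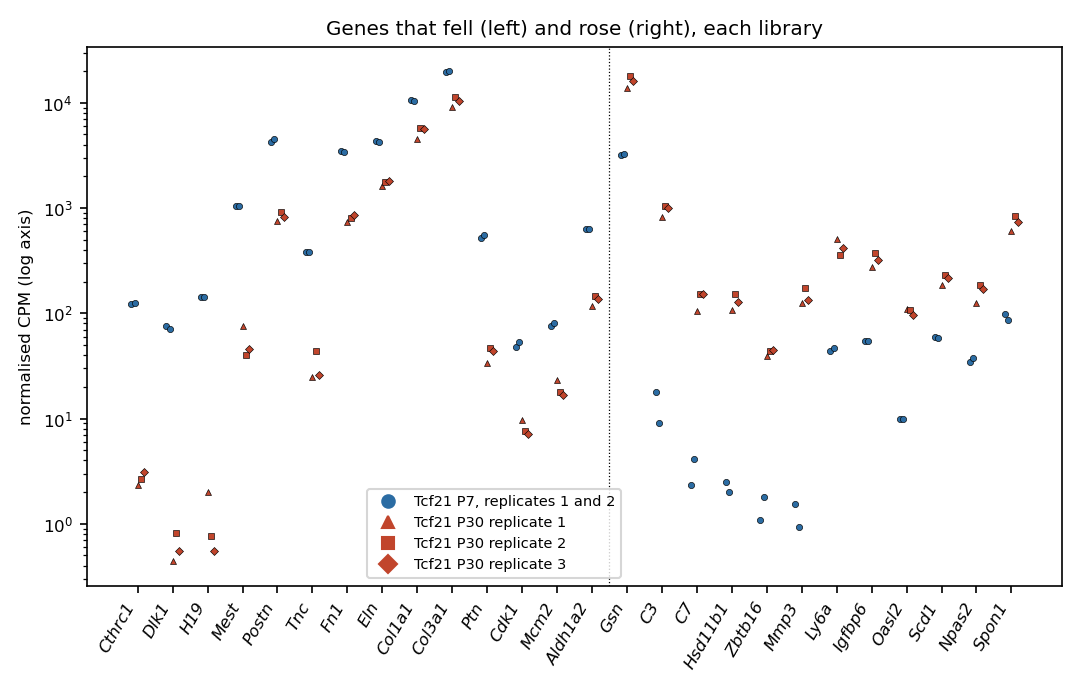
Level of 26 genes in each Tcf21 library (vertical axis, normalised CPM on a log scale), genes that fell on the left of the dotted line and genes that rose on the right, with circles for Tcf21 P7 and triangles, squares and diamonds for Tcf21 P30 replicates 1, 2 and 3. In every gene shown all points of one age lie on the same side of all points of the other. The genes were chosen with their values known, and the ages did not overlap for 61.8% of all genes tested.

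On the scale of the counts themselves, which favours long and abundant transcripts, counts moved from collagens to gelsolin. Gsn, the actin-severing protein gelsolin, of which fibroblasts also make a secreted form (chr2:35256380-35307892), gave 3202 and 3289 CPM in Tcf21 P7 and 13716, 18119 and 15951 CPM in Tcf21 P30 (2.29 ± 0.21, adjusted p = 0.00020). Among the called genes no other gained as many counts. Fos, the protease Htra3, the nuclear RNA Malat1, the endocytic receptor Lrp1, Serping1, which encodes the C1 inhibitor, and the matrix protein Ccdc80 also gained many, with changes of 0.89 (Htra3) to 2.09 (Malat1). Fos (adjusted p = 0.092 and 0.088) and Htra3 (0.096 and 0.097) lost their calls without Tcf21 P7 replicate 1 and 2. The largest losses of counts were in Col3a1, Col1a1, Col1a2, Postn, Fn1 (fibronectin), Eln (tropoelastin), Col5a1 and Itm2a, a membrane protein of developing cartilage and muscle. Their changes ranged from -2.41 (Postn) to -0.68 (Col5a1).

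Fibrillar collagens, the rope-forming proteins of the interstitium, fell at 30 days. Of 11 genes 8 were lower and 1, Col5a3, was higher (0.93), with a median of -0.95. Col3a1 (chr1:45311538-45349706) gave 19793 and 19827 CPM in Tcf21 P7 and 9106, 11328 and 10335 CPM in Tcf21 P30 (-0.95 ± 0.15, adjusted p = 0.0024), and Col1a1 gave 10707 and 10366 CPM and then 4536, 5712 and 5601 CPM (-1.0 ± 0.15). Of the minor fibrillar chains, some fell further and others did not. Col24a1 dropped from 19.2 and 22.6 CPM to 0.631, 0.824 and 0.769 CPM (-4.80 ± 0.17), and Col11a1, a chain that nucleates thin fibrils and is known from cartilage, from 73.5 and 67.7 CPM to 4.35, 3.87 and 9.18 CPM (-3.59 ± 0.39), while Col5a1 fell by less (-0.68 ± 0.16). Summed, the list made up 4.37% ± 0.0272 of all counts in Tcf21 P7 (SD, n = 2) and 2.39% ± 0.237 in Tcf21 P30 (SD, n = 3). Col11a2 was not called without Tcf21 P7 replicate 1 (adjusted p = 0.065) or 2 (0.099) or Tcf21 P30 replicate 3 (0.060), and Col5a1 without Tcf21 P7 replicate 1 (0.12) or 2 (0.10).

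The other collagens of the interstitium split. Of 18 genes 12 were lower, among them all 3 chains of collagen IX, which coats thin fibrils. Col9a3 fell from 8.41 and 11.4 CPM to 0.694, 0.380 and 0.550 CPM (-4.18 ± 0.27), Col9a2 changed by -3.03 ± 0.26 and Col9a1 by -2.48 ± 0.46. Col26a1 went from 153 and 158 CPM to 14.8, 20.1 and 19.7 CPM (-3.10 ± 0.13). The 2 genes that were higher were Col8a1, a short-chain network collagen, at 131 and 141 CPM and then 592, 855 and 780 CPM (2.45 ± 0.16), and Col20a1 (2.26), and without Tcf21 P7 replicate 1 Col20a1 was not called (adjusted p = 0.068). In the basement membrane, the thin sheet that surrounds muscle cells and vessels, 7 of 22 genes were higher and 2 lower. Col4a3 rose from 27.7 and 23 CPM to 116, 168 and 181 CPM (2.61 ± 0.21) and Col4a4, its partner in the same collagen IV trimer, from 29.2 and 33.4 CPM to 99.0, 113 and 152 CPM (1.95 ± 0.19). Lamc3, a laminin gamma chain, rose as well (2.56 ± 0.35). The chains of the common trimer moved otherwise, with Col4a1 not called (-0.04) and Col4a2 lower (-0.50), a call lost without Tcf21 P7 replicate 1 (adjusted p = 0.19) or 2 (0.14) or Tcf21 P30 replicate 2 (0.064) or 3 (0.10). The basement membrane genes that were lower numbered 1 without Tcf21 P7 replicate 1 or 2 or Tcf21 P30 replicate 2 or 3.

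Genes that finish and crosslink collagen fell in part. Of 30 such genes 8 were lower and 3 higher. P4ha3, a prolyl hydroxylase subunit that stabilises the collagen helix, fell from 44.9 and 44.0 CPM to 3.98, 5.52 and 6.92 CPM (-3.02 ± 0.22). Lox, the lysyl oxidase that starts the crosslinks of collagen and elastin, fell from 299 and 310 CPM to 109, 116 and 120 CPM (-1.41 ± 0.09), and Adamts14, a procollagen peptidase, by -1.57 ± 0.20. Pcolce2, an enhancer of procollagen cleavage, rose from 110 and 117 CPM to 368, 490 and 466 CPM (1.96 ± 0.19). With Tcf21 P7 replicate 1 or 2 removed the list had 3 lower and 1 higher, without Tcf21 P30 replicate 3 it had 4 lower, and without Tcf21 P30 replicate 1 it had 5 higher.

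Elastic fibres, which let vessels and heart walls recoil, consist of an elastin core on a scaffold of microfibrils. Of 17 genes 9 were lower and 5 higher. Eln gave 4341 and 4280 CPM and then 1614, 1755 and 1789 CPM (-1.33 ± 0.11, adjusted p = 0.00013). Fbn2, the fibrillin of fetal microfibrils, went from 364 and 364 CPM to 29.0, 36.2 and 41.2 CPM (-3.36 ± 0.14), and Mfap2, a microfibril protein, changed by -1.81 ± 0.15. Fbn1, the other main fibrillin, differed by -0.34 and did not pass. Efemp1, a fibulin, moved the other way, from 23.3 and 20.6 CPM to 73.7, 96.6 and 98.6 CPM (2.03 ± 0.20). The genes higher numbered 1 without Tcf21 P7 replicate 1 or 2 and 2 without Tcf21 P30 replicate 3, and the genes lower numbered 5 without Tcf21 P7 replicate 1 or 2.

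Small leucine-rich proteoglycans, which bind to collagen fibrils and set their thickness, were mostly higher. Of 13 genes 8 rose and 2 fell, with a median of 0.43. Omd (osteomodulin) gave 5.46 and 5.54 CPM and then 29.7, 37.1 and 40.2 CPM (2.70 ± 0.17), and Podn (podocan) gave 26.8 and 23.4 CPM and then 144, 154 and 179 CPM (2.66 ± 0.17). Epyc rose by 2.28 ± 0.24 and Chad by 1.70 ± 0.42. Decorin (Dcn, 0.40, adjusted p = 0.055) and lumican (Lum, 0.03) did not pass. The call of Chad was lost without Tcf21 P7 replicate 1 (adjusted p = 0.18) or 2 (0.14) or Tcf21 P30 replicate 2 (0.055) or 3 (0.058). Without Tcf21 P7 replicate 1 or 2 or Tcf21 P30 replicate 2 or 3, the members higher numbered 4, 3, 5 and 4, and none was lower without Tcf21 P7 replicate 1 or 2 or Tcf21 P30 replicate 3.

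Matricellular genes moved in both directions. Of 23 genes 9 were lower and 8 higher. Besides Postn and Cthrc1, Tnc (tenascin C, chr4:63959785-64047015), a hallmark of matrix under construction, fell from 379 and 381 CPM to 24.7, 44.1 and 25.7 CPM (-3.59 ± 0.27), and Nov (CCN3) from 760 and 769 CPM to 81.2, 96.2 and 101 CPM (-3.04 ± 0.12). Spon1, the F-spondin gene (chr7:113765998-114043370), rose from 98.3 and 87.1 CPM to 611, 849 and 735 CPM (2.98 ± 0.16, adjusted p = 3.0e-05). The CCN family, to which Nov belongs, divided: Wisp1 (CCN4) changed by -2.85, while Wisp2 (CCN5, 2.39) and Ctgf (CCN2, 1.14) rose. The thrombospondins Thbs1 (-1.10), Thbs2 (-1.14), Thbs3 (-0.88) and Thbs4 (-0.52) were lower and the related Comp higher (2.41). Thbs3 lost its call without either Tcf21 P7 library (adjusted p = 0.070 and 0.075), and Thbs4 with each of the 5 Tcf21 libraries left out (highest 0.23). Among 16 matrix metalloproteinases and inhibitors 4 were higher and 4 lower. With Mmp3, the inhibitors Timp3 (555 and 533 CPM, then 1244, 1412 and 1328 CPM, 1.29 ± 0.10) and Timp1 (1.15 ± 0.14) rose, and Mmp16 (-1.21 ± 0.17) and Mmp14 (-1.02), both membrane-bound proteases, fell. The protease genes lower numbered 2 without Tcf21 P7 replicate 1 or 2.

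Identity genes of fibroblasts were present at both ages. Of 20 identity genes 5 were higher (Pdgfra, Ddr2, Gsn, Meox1 and Serpinf1) and 5 lower (Col1a1, Col1a2, Col3a1, Mfap4 and Fstl1), with a median of 0.13. Serpinf1, the pigment epithelium-derived factor, gave 474 and 483 CPM and then 864, 1192 and 1017 CPM (1.10 ± 0.19), and the microfibril gene Mfap4 gave 1354 and 1378 CPM and then 602, 493 and 658 CPM (-1.22 ± 0.13). Markers of universal or adventitial fibroblasts, the cells around vessels that serve as a reserve, were higher in 8 of 18 genes and lower in 1. Ly6a, which encodes Sca1, rose from 44.2 and 46.5 CPM to 508, 359 and 419 CPM (3.24 ± 0.21). Igfbp6 rose from 55.0 and 54.1 CPM to 278, 378 and 319 CPM (2.57 ± 0.14), the enkephalin precursor Penk by 1.75 ± 0.26, and the hyaluronan synthase Has1 by 3.35 ± 0.83, whereas Cd34 (0.03) and Dpt (0.01) did not pass. Ly6a belongs to a family of close copies, and endothelial cells also express it. It was lower in Tcf21 P30 replicates 2 and 3, with fewer endothelial transcripts, than in replicate 1, and above both Tcf21 P7 libraries in all of them. Has1 was not called without Tcf21 P7 replicate 1 (adjusted p = 0.19) or 2 (0.18) or Tcf21 P30 replicate 2 (0.062) or 3 (0.070). Without Tcf21 P7 replicate 1 or 2, the identity genes higher numbered 2 or 3 and the universal genes 5 each. Ddr2 (adjusted p = 0.059 without Tcf21 P7 replicate 1), Meox1 (0.057 and 0.052 without replicates 1 and 2) and Fstl1 (0.13 and 0.17, and 0.072 without Tcf21 P30 replicate 3) then lost their calls.

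Of 12 transcription factors of early heart development 3 were lower (25%, against 15% of all genes tested), and 1 with each Tcf21 library left out in turn. Tbx20 gave 296 and 373 CPM and then 146, 108 and 153 CPM (-1.30 ± 0.17), and Gata4 gave 425 and 406 CPM and then 188, 274 and 240 CPM (-0.83 ± 0.15). Nkx2-5 (-1.69), better known from heart muscle, was the other, a call lost without Tcf21 P7 replicate 1 (adjusted p = 0.12) or 2 (0.098) or Tcf21 P30 replicate 2 (0.064) or 3 (0.079). Gata6 (-0.17), Tbx5 (0.19) and Hand2 (-0.22) did not pass. Gata4 was not called without Tcf21 P7 replicate 1 (adjusted p = 0.057), when a single member was lower, and without Tcf21 P30 replicate 1 a single member was higher. Of 17 contractile genes, which mark smooth muscle and myofibroblasts, 2 were higher and 2 lower (11.8% each, against 16.7% and 15% of all genes tested). The higher ones were Synpo2 (1.33 ± 0.24) and Cald1 (0.33 ± 0.10), and the lower ones Actg2 (-1.46 ± 0.32) and Zyx (-0.47 ± 0.10). Acta2, the smooth muscle actin of myofibroblasts, stood at 299 and 317 CPM in Tcf21 P7 and at 354, 111 and 122 CPM in Tcf21 P30, with replicate 1 above and the others below (adjusted p = 0.42). Without Tcf21 P30 replicate 1, the library with more endothelial and pericyte transcripts, 9 contractile genes were lower. None was lower without Tcf21 P7 replicate 1 or 2 and 1 was without Tcf21 P30 replicate 3, and a single gene was higher without either Tcf21 P7 library or without Tcf21 P30 replicate 2 or 3. Actg2 (adjusted p = 0.052 and 0.060), Zyx (0.15 and 0.084) and Cald1 (0.19 and 0.23) lost their calls without Tcf21 P7 replicate 1 and 2, Cald1 also without Tcf21 P30 replicate 2 (0.072) or 3 (0.063) and Zyx without replicate 3 (0.054).

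Cell division genes were lower at 30 days almost without exception. Of 34 mitosis genes 33 were lower, with a median of -1.53, and their summed level went from 945 and 904 CPM in Tcf21 P7 to between 300 and 349 CPM in Tcf21 P30. Cdk1, the kinase that starts mitosis (chr10:69335146-69352938), gave 48.1 and 53.4 CPM and then 9.78, 7.55 and 7.09 CPM (-2.64 ± 0.18, adjusted p = 6.5e-05). Ccnf, an F-box cyclin, fell by -2.53 ± 0.24, Birc5, which encodes survivin of the chromosomal passenger complex, by -2.23 ± 0.21, and Bub1b, of the spindle checkpoint, by -2.04 ± 0.14. Bub1 was the 1 gene that did not pass (-1.72, adjusted p = 0.077). The proliferation antigen Mki67 stood at 31.5 and 37.6 CPM and then at 21.5, 9.26 and 12.5 CPM, with Tcf21 P30 replicate 1 above the other libraries of its age, and was not called without Tcf21 P7 replicate 1 (adjusted p = 0.083) or 2 (0.14) or Tcf21 P30 replicate 3 (0.075). Of 40 DNA replication genes 31 were lower, with a median of -1.02. Mcm10 gave 7.39 and 7.33 CPM and then 1.01, 0.951 and 1.76 CPM (-2.55 ± 0.30), Uhrf1, which carries methylation through replication, gave 44.2 and 38.7 CPM and then 7.89, 7.04 and 8.02 CPM (-2.44 ± 0.19), and the chromatin assembly factor Chaf1b (-2.39 ± 0.26) and cyclin E1 (Ccne1, -2.31 ± 0.44) were lower as well. Pcna, which DNA repair also uses, changed by -0.41 and was not called without Tcf21 P7 replicate 1 (adjusted p = 0.16) or 2 (0.14) or Tcf21 P30 replicate 2 (0.062) or 3 (0.079). With each Tcf21 library left out in turn, 28 mitosis and 23 replication genes were called every time. Ccne1 was not called without Tcf21 P7 replicate 1 (adjusted p = 0.060). Macrophages, whose markers also fell, can divide, and their part in this decrease was not tested.

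Promoters of mitotic genes are known to carry the cell cycle homology region, bound by a repressor complex in resting cells, and CCAAT boxes. The 250 bases before the annotated start were searched for them on both strands, with promoter sequence from RefSeq on GRCm38.p6. The letters TTTGAA, or their reverse complement TTCAAA, were found in 12 of the 28 mitosis genes called lower that had a promoter in the table (42.9%), against 18.3% of all 27025 genes of the table and 13.0% of the 11818 genes tested that matched it. CCAAT was found in 21 of the 28 (75%), against 37.5% of all genes and 39.7% of the genes tested. In the replication genes called lower, the E2F site TTTGGCGC or TTTCGCGC was found in 5 of 25 (20.0%), against 0.759% of all genes and 1.35% of the genes tested. Matches of different motifs were counted separately, also where they overlap. A match describes the letters and is no evidence of binding. The promoters of the 3 mitosis genes with the lowest adjusted p among those with TTTGAA are shown because their members fell together, with the region's letters in capitals. They are Ube2c (chr2:164769679-164769928, plus strand), Prc1 (chr7:80294226-80294475, plus strand) and Cdk1 (chr10:69352913-69353162, minus strand), each read 5′ to 3′ along the gene.
Ube2c: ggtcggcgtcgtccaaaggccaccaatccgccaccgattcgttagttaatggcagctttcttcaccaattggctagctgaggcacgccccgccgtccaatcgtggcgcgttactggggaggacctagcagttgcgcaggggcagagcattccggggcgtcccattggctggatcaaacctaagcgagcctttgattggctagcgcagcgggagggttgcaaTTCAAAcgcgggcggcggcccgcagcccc
Prc1: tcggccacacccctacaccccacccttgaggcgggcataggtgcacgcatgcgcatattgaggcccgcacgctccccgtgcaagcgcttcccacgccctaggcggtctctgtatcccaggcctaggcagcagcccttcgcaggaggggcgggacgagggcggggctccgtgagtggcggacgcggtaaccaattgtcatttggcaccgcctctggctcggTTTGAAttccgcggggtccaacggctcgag
Cdk1: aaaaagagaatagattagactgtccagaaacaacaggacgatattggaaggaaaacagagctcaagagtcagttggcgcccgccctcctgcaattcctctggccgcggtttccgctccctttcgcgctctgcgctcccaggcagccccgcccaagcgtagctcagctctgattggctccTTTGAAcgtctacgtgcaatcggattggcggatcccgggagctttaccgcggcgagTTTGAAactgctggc
Ube2c, the ubiquitin-conjugating enzyme of the anaphase-promoting complex, gave 28.2 and 27.0 CPM and then 7.32, 7.61 and 6.65 CPM (-1.94 ± 0.13). Prc1, which bundles the microtubules of the central spindle, gave 59.2 and 60.6 CPM and then 23.2, 22.8 and 20.6 CPM (-1.43 ± 0.10). There are 23 bases between the match and the start in Ube2c and 24 in Prc1, and Cdk1 has 2 matches, the first with 65 bases between it and the start.

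Imprinted genes, expressed from a single parental copy and known as regulators of fetal growth, were mostly lower. Of 23 genes 16 were lower, 1 higher and 6 not called, with a median of -1.59, and 13 were lower with each Tcf21 library left out in turn. Besides H19 and Dlk1, Mest (chr6:30723547-30748465) fell from 1044 and 1035 CPM to 75.9, 40.0 and 45.8 CPM (-4.27 ± 0.26) and Igf2, the fetal growth factor, from 37.9 and 28.0 CPM to 2.90, 0.634 and 1.32 CPM (-4.35 ± 0.49). Zim1 (-5.02 ± 0.52) and Magel2 (-5.32 ± 0.72) followed. Kcnq1ot1, an antisense RNA of the nucleus, was the 1 gene that was higher, and 3 were higher without Tcf21 P30 replicate 1. Counting that ignored strand would mix Igf2 with its antisense transcript, Mest with the overlapping Copg2, and Kcnq1ot1 with Kcnq1, and H19 contains another annotated RNA. Genes of the group of Lin28 and let-7 microRNA targets, among them mRNA-binding proteins, were mostly lower as well. Of 6 genes tested in that group 4 fell, with Igf2bp3 at 20.5 and 22.7 CPM and then 2.90, 2.85 and 3.63 CPM (-2.78 ± 0.17), Igf2bp2 at -1.45 ± 0.10 and Arid3a at -1.41 ± 0.26. Lin28a, Lin28b, Hmga2 and Trim71 had too few counts to be tested. Among 9 cell cycle inhibitors 3 were higher and 2 lower. Cdkn1a (p21) rose from 47.1 and 46.6 CPM to 143, 142 and 125 CPM (1.55 ± 0.10), and the imprinted Cdkn1c (p57) fell from 256 and 241 CPM to 126, 71.1 and 66.3 CPM (-1.50 ± 0.30). Cdkn1c (adjusted p = 0.061 and 0.052), Cdkn2c (0.17 and 0.22) and Rb1 (0.075 and 0.062) lost their calls without Tcf21 P7 replicate 1 and 2, and Cdkn2c also without Tcf21 P30 replicate 1 (0.087) or 2 (0.12). No inhibitor was then lower without a Tcf21 P7 library, and 1 was without Tcf21 P30 replicate 1 or 2.

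Hormone-related genes were examined in separate lists. Of 20 genes of growth hormone, insulin-like growth factors and thyroid hormone, 9 were higher, 2 lower and 9 not called, with a median of 0.53. Igf1, the postnatal growth factor, gave 144 and 158 CPM and then 257, 288 and 326 CPM (0.94), while the receptor gene Igf1r was lower (-0.80), a call lost without Tcf21 P7 replicate 1 (adjusted p = 0.066) or 2 (0.053). The binding proteins Igfbp6 and Igfbp3 (156 and 158 CPM, then 437, 434 and 441 CPM, 1.48 ± 0.19) rose. The corepressor Hr, induced by thyroid hormone, rose from 46.1 and 39.2 CPM to 117, 169 and 192 CPM (1.90 ± 0.21) and the transcription factor Klf9, which thyroid hormone and glucocorticoids induce, from 89.9 and 94.8 CPM to 240, 266 and 275 CPM (1.49 ± 0.10). No member of this list was lower without either Tcf21 P7 library, and 1 was without Tcf21 P30 replicate 3.

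Glucocorticoid activation and response genes were higher in 13 of 16 cases, with a median of 1.57. The list summed to 1327 and 1399 CPM in Tcf21 P7 and to between 3811 and 4196 CPM in Tcf21 P30. Besides Hsd11b1, Zbtb16, a zinc finger repressor that glucocorticoids induce (chr9:48654297-48836222), gave 1.08 and 1.79 CPM and then 38.9, 43.9 and 44.7 CPM (4.88 ± 0.37, adjusted p = 0.00012). The metallothioneins Mt2 (3.24 and 3.06 CPM, then 33.0, 34.2 and 41.0 CPM, 3.52 ± 0.32) and Mt1 (2.55 ± 0.19), which bind metals and are close copies, rose. The receptor gene Nr3c1 itself changed by 0.43, from 200 and 215 CPM to 269, 286 and 283 CPM, a call lost without Tcf21 P7 replicate 1 (adjusted p = 0.14) or 2 (0.074), and Per1, Ddit4 and Angptl4 did not pass. Some of these genes, such as Dusp1 (1.64, adjusted p = 0.063 and 0.061 without Tcf21 P7 replicate 1 and 2), also respond to cell dissociation, whose genes were higher too and are described below. Fkbp5 (0.97) and Tsc22d3 (0.95) were higher as well, and the part of dissociation in the list was not tested.

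Enzymes that make retinoic acid, a signal of heart development, moved in opposite directions. Aldh1a2, the enzyme of the embryonic epicardium (chr9:71215789-71296243), fell from 626 and 625 CPM to 117, 147 and 138 CPM (-2.22 ± 0.11, adjusted p = 2.3e-05), and Aldh1a3 fell by -1.40 ± 0.15. Aldh1a1 rose from 66.9 and 64.4 CPM to 176, 238 and 210 CPM (1.66 ± 0.19), and Rbp4, the retinol carrier, by 1.54 ± 0.28. In all, 6 of 17 retinoic acid genes were higher and 5 lower. When Tcf21 P7 replicate 1 or 2 was removed 3 were higher, and 3 were lower without replicate 1. Rbp4 was not called in either case (adjusted p = 0.054 and 0.056).

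Circadian genes moved in both directions. Of 18 genes 8 were lower and 7 higher. The activators Npas2 (34.7 and 37.2 CPM, then 124, 184 and 171 CPM, 2.15 ± 0.19), Clock (1.36) and Arntl (1.34) were higher, and the repressors Per3 (62.2 and 61.9 CPM, then 12.2, 13.1 and 14.9 CPM, -2.21 ± 0.11), Per2 (-1.80 ± 0.21), Cry1 (-0.97) and Cry2 (-0.59) were lower, as was the output factor Dbp (68.1 and 73.5 CPM, then 23.7, 24.5 and 22.7 CPM, -1.58 ± 0.10). These genes cycle over the day in opposite phases. The sources used here do not give the hour of collection, and age and hour cannot be told apart. Without Tcf21 P7 replicate 2, 5 were lower, and Cry2 was not called without Tcf21 P7 replicate 1 (adjusted p = 0.090) or 2 (0.051).

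**Figure D3:**
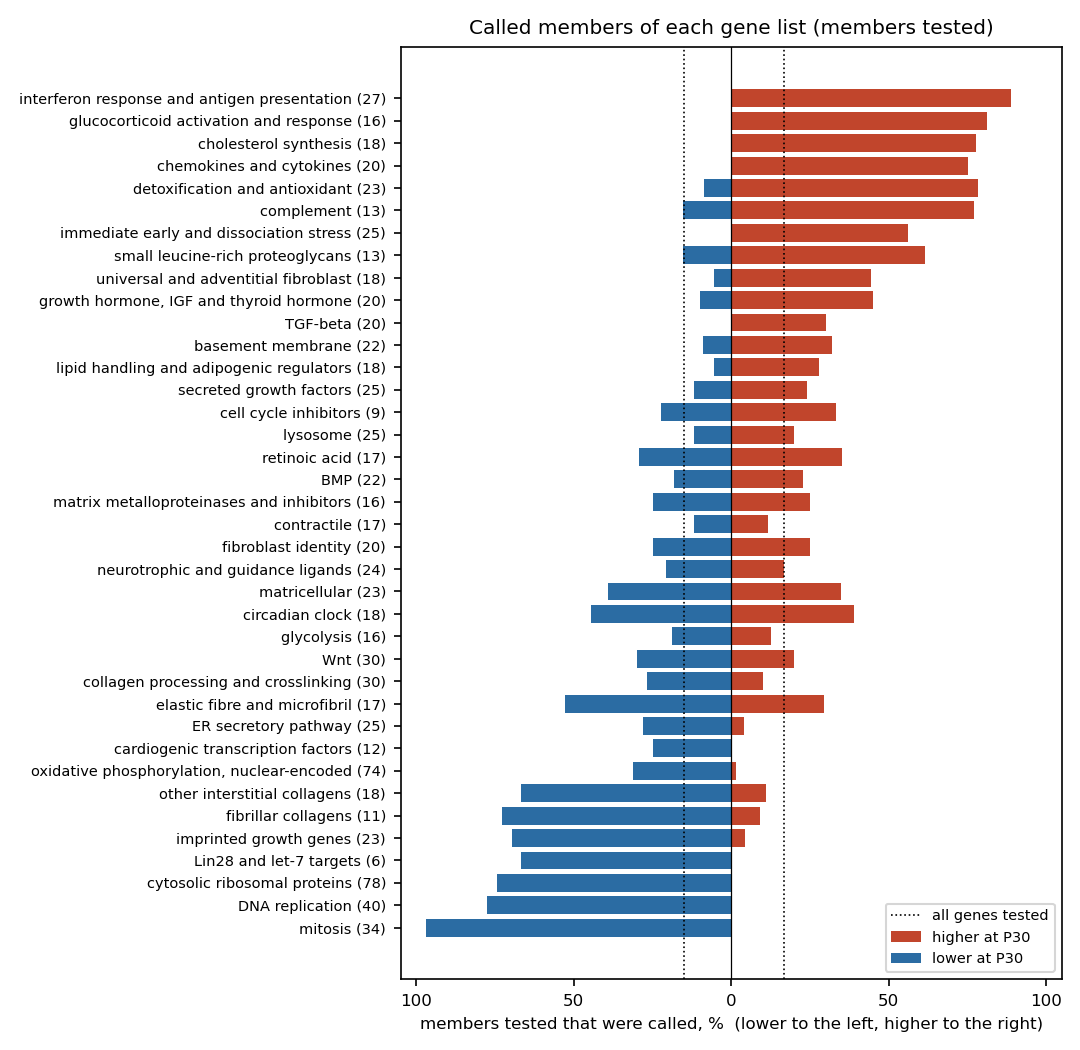
Share of the tested members of each gene list called higher at 30 days (red, to the right) or lower (blue, to the left), without the lists of other cell types. The number tested is in brackets, and the shares of all genes tested are dotted lines at 16.7% and 15%. Lists of the interferon response, glucocorticoids, cholesterol synthesis, chemokines, detoxification and complement reach over 70% higher. The mitosis, replication, ribosomal protein and fibrillar collagen lists reach over 70% lower.

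Complement genes, which fibroblasts express as well as liver, were higher in 10 of 13 cases and lower in 2, with a median of 2.14. C7, of the membrane attack complex, gave 2.33 and 4.10 CPM and then 106, 151 and 151 CPM (5.40 ± 0.34). The proteases that start the classical pathway, C1s1 (44.6 and 43.9 CPM, then 248, 270 and 277 CPM, 2.58 ± 0.16) and C1ra (2.57 ± 0.22), rose, and so did the regulator Serping1 (828 and 832 CPM, then 1681, 2184 and 1925 CPM, 1.22 ± 0.18). Macrophage markers, 14 of 17, fell over the same interval, and their summed level went from 1476 and 1461 CPM to 738, 476 and 513 CPM.

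Genes induced by interferon or used to present antigen were higher in 24 of 27 cases, with a median of 1.96. Oasl2, an oligoadenylate synthetase-like gene (chr5:114896936-114912234), gave 9.83 and 9.93 CPM and then 110, 108 and 95.6 CPM (3.40 ± 0.25, adjusted p = 0.00012). Usp18, a brake on the interferon receptor, gave 3.58 and 3.00 CPM and then 37.3, 27.3 and 26.5 CPM (3.20 ± 0.32), and Ifit3 gave 5.80 and 9.18 CPM and then 66.8, 50.6 and 48.2 CPM (2.88 ± 0.43). B2m, the light chain of class I molecules, changed by 0.95 and H2-K1, a heavy chain of a family of close copies, by 2.21 (adjusted p = 0.11 and 0.099 without Tcf21 P7 replicate 1 and 2). In Oasl2, Usp18, Ifit1 and Ifit3 the highest library was Tcf21 P30 replicate 1, which also held the most endothelial transcripts. The median of the list was 1.63 without that library. Without it 25 members were higher, and 16 were called with each Tcf21 library left out in turn. The part of endothelial RNA in the increase was otherwise not tested.

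The interferon-stimulated response element, where the interferon-activated factor complex binds, was searched on both strands as a pair of TTTC runs with any 2 bases between them, a motif chosen after the values were seen. It was found in the 250 bases before the start of 9 of the 19 interferon genes called higher that had a promoter in the table (47.4%), against 3.46% of all genes in it and 3.32% of the genes tested. The promoters of Ifit1 (chr19:34640639-34640888, plus strand) and Ifit3 (chr19:34583279-34583528, plus strand) are shown. These were the 2 genes with the largest increase among those with a match. Each holds 2 matches, in capitals.
Ifit1: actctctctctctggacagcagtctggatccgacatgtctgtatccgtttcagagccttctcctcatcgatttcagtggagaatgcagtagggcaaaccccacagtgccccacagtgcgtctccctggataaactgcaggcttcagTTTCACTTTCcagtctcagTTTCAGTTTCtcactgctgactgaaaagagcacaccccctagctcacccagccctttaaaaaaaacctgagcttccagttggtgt
Ifit3: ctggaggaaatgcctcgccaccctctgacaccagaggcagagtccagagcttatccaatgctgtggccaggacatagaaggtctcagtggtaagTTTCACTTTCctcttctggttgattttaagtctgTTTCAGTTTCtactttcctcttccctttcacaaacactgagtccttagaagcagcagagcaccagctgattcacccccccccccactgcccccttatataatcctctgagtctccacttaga
Between the first match and the start there are 94 bases in Ifit1 and 146 in Ifit3.

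Chemokine and cytokine genes were higher in 15 of 20 cases, with a median of 2.02. Tnfsf13b, the B-cell factor BAFF, gave 0.0568 and 0.115 CPM in Tcf21 P7 and 7.26, 6.28 and 7.64 CPM in Tcf21 P30. Il6 gave 0.568 and 0.923 CPM and then 13.1, 16.2 and 16.8 CPM (4.35 ± 1.23, adjusted p = 0.048), and Cxcl9, which interferon gamma induces, 0.398 and 0.692 CPM and then 15.5, 2.92 and 5.11 CPM (3.83 ± 0.95). Without Tcf21 P30 replicate 1 the change of Cxcl9 was 2.88. The Postn P7 libraries gave 1.37 and 18.4 CPM for Il6, so that the spread within that group was as wide as the difference between the ages. Il6 was not called without Tcf21 P7 replicate 1 (adjusted p = 0.25) or 2 (0.22) or Tcf21 P30 replicate 2 (0.089) or 3 (0.092), and Cxcl9 without Tcf21 P7 replicate 1 (0.17) or 2 (0.13). The list had 9 members higher when either Tcf21 P7 library was removed.

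Detoxification and antioxidant enzymes, known from liver and lung, were higher in 18 of 23 cases and lower in 2, with a median of 1.33. Beside Inmt, the esterase Ces1d gave 3.64 and 5.83 CPM and then 64.7, 77.1 and 83.6 CPM (3.99 ± 0.27), and the cytochrome Cyp2e1 0.284 and 0.289 CPM and then 8.20, 8.56 and 6.54 CPM (4.73 ± 0.52). Aox3, an aldehyde oxidase, gave 0 and 0.0577 CPM and then 3.98, 5.64 and 5.71 CPM. Glutathione transferases belong here, with Gstm1 at 163 and 168 CPM and then 690, 853 and 749 CPM (2.20). Ces1d and the transferases have close copies in the genome. The members that were lower fell out without Tcf21 P7 replicate 1 or 2 or Tcf21 P30 replicate 2, and 1 remained without Tcf21 P30 replicate 3.

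Cholesterol synthesis genes, which answer to the sterol sensor Srebf2, were higher in 14 of 18 cases, with a median of 0.92, and summed to 612 and 589 CPM and then to between 1037 and 1131 CPM. Sc5d gave 23.4 and 24.4 CPM and then 57.4, 67.1 and 73.9 CPM (1.47 ± 0.13), Sqle, an early enzyme of the sterol branch, 27.3 and 25.7 CPM and then 52.6, 72.5 and 67.9 CPM (1.28 ± 0.16), and Idi1 (1.46 ± 0.27) rose. The call of Idi1 was lost without Tcf21 P7 replicate 2 (adjusted p = 0.060). Among 18 lipid handling genes 5 were higher and 1 lower. Apod, an apolipoprotein of resting fibroblasts, gave 14.4 and 16.1 CPM and then 70.3, 82.6 and 80.9 CPM (2.35 ± 0.35). The desaturase Scd1 gave 59.8 and 58.9 CPM and then 188, 232 and 217 CPM (1.84 ± 0.11), and Lpl (1.12 ± 0.13) and the transporter Abca8a (0.81 ± 0.10) rose. None of the lipid genes was lower without either Tcf21 P7 library.

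The synthesis machinery changed by less. Of 78 cytosolic ribosomal protein genes 58 were lower, with a median of -0.52, and their sum went from 8452 and 8564 CPM to between 5271 and 6534 CPM. Rpl34 gave 88.0 and 92.4 CPM and then 49.9, 39.1 and 50.1 CPM (-0.96 ± 0.13), Rpl36a changed by -0.84 ± 0.18, Rps26 by -0.84 ± 0.22 and Rps15a by -0.82 ± 0.19. Postn P7, of the younger age, summed to between 5177 and 6330 CPM, inside or below the range of Tcf21 P30, so that Tcf21 P7 stood apart from both other groups. The count fell to 8 without Tcf21 P7 replicate 1, 6 without replicate 2, and 34 and 36 without Tcf21 P30 replicates 2 and 3. Rps26 (adjusted p = 0.11 and 0.10) lost its call without Tcf21 P7 replicate 1 and 2, and Rpl36a (0.062) and Rps15a (0.10) without replicate 2. Ribosomal protein genes have many processed copies.

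Of 74 nuclear genes of oxidative phosphorylation 23 were lower and 1 higher, with a median of -0.27. Their sum was 8747 and 8721 CPM in Tcf21 P7 and between 7059 and 7692 CPM in Tcf21 P30. Postn P7, of the younger age, summed to 7048 and 6486 CPM, so that Tcf21 P7 stood apart from both other groups here as well. Uqcrfs1 (-0.52 ± 0.11), Cox7c (-0.50 ± 0.17), Atp5o (-0.50 ± 0.08) and Uqcrh (-0.47 ± 0.11) had the largest changes among the called members with at least 5 CPM. The count moved with the libraries used. In all, 1 was lower without Tcf21 P7 replicate 1 or 2, 3 without Tcf21 P30 replicate 3, 12 without replicate 2 and 35 without replicate 1, and the gene that was higher fell out without either Tcf21 P7 library. Uqcrfs1 (adjusted p = 0.085 and 0.058), Cox7c (0.18 and 0.16) and Uqcrh (0.060 and 0.11) lost their calls without Tcf21 P7 replicate 1 and 2, and Cox7c without Tcf21 P30 replicate 2 (0.093) or 3 (0.098). Of 16 glycolysis genes 2 were higher (12.5%, against 16.7% of all genes tested) and 3 lower (18.8%, against 15%). The higher ones were Pfkp (116 and 116 CPM, then 212, 249 and 213 CPM, 0.96 ± 0.11) and Aldoa (0.43 ± 0.09). Among the lower glycolysis genes were Pfkl (-0.62 ± 0.17) and Pfkm (-0.56 ± 0.08), the other isoforms of phosphofructokinase. Without either Tcf21 P7 library 1 was higher and 1 lower, and 1 was lower without Tcf21 P30 replicate 3. Pfkl (0.12 and 0.10) and Aldoa (0.10 and 0.11) lost their calls without Tcf21 P7 replicate 1 and 2, and Pfkl without Tcf21 P30 replicate 2 (0.062) or 3 (0.052).

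Of 25 genes of the secretory pathway of the endoplasmic reticulum 7 were lower, such as Ssr2 (253 and 247 CPM, then 142, 181 and 160 CPM, -0.64 ± 0.12), Creb3l2 (-0.62 ± 0.14) and Kdelr2 (-0.54 ± 0.11), and 1, the chaperone Hsp90b1, was higher (0.55 ± 0.09). No gene of this list was lower without Tcf21 P7 replicate 1 or 2, none was higher without replicate 1, and 2 were higher without Tcf21 P30 replicate 1. The adjusted p was then 0.063 and 0.057 for Ssr2, 0.076 and 0.089 for Creb3l2, 0.063 and 0.064 for Kdelr2, and 0.077 for Hsp90b1 without replicate 1. Of 25 lysosomal genes 5 were higher (20%, against 16.7% of all genes tested) and 3 lower (12%, against 15%). Asah1 (0.67 ± 0.11) and Lamp2 (0.61 ± 0.11) were among the higher. Ctss (50.3 and 47.4 CPM, then 29.5, 18.5 and 15.4 CPM, -1.21 ± 0.30) and Lgmn (-0.98 ± 0.09) were among the lower. Ctss is a protease of macrophages, whose markers fell. Without Tcf21 P7 replicate 1 or 2 no or 1 lysosomal gene was higher and 1 was lower, and without Tcf21 P30 replicate 3 there were 3 higher. Ctss (adjusted p = 0.10 and 0.086) and Lamp2 (0.084 and 0.060) lost their calls without Tcf21 P7 replicate 1 and 2, Asah1 (0.057) without replicate 1 and Ctss (0.057) without Tcf21 P30 replicate 2.

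Signalling ligands and antagonists changed one by one. Of 25 secreted growth factors 6 were higher (24%, against 16.7% of all genes tested) and 3 lower (12%, against 15%). Ptn, the heparin-binding factor pleiotrophin (chr6:36714929-36810220), fell from 525 and 548 CPM to 33.5, 47.2 and 44.1 CPM (-3.69 ± 0.15, adjusted p = 1.4e-05), and its relative Mdk (midkine) from 288 and 286 CPM to 29.9, 39.9 and 32.1 CPM (-3.08 ± 0.13). Both promote the growth of nerve fibres. Fgf7 rose from 5.06 and 3.12 CPM to 13.9, 15.1 and 15.9 CPM (1.87 ± 0.25) and Gas6, the ligand of Axl, by 1.02 ± 0.10. Among 24 neurotrophic and guidance ligands, to which Ptn and Mdk also belong, 4 were higher (16.7%, against 16.7%) and 5 lower (20.8%, against 15%). The netrin Ntn4 rose from 53.7 and 57.4 CPM to 201, 258 and 234 CPM (2.06 ± 0.13), and the neurotrophin Ntf3 from 3.81 and 3.69 CPM to 19.1, 8.24 and 9.01 CPM (1.69 ± 0.38). Without Tcf21 P30 replicate 1 the change of Ntf3 was 1.21. Ntf3 was not called without Tcf21 P7 replicate 1 (adjusted p = 0.082) or 2 (0.086), when 2 of these ligands were higher, and 9 were lower without Tcf21 P30 replicate 1.

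Of 20 TGF-beta genes 6 were higher. Inhbb, an activin subunit, gave 4.83 and 7.21 CPM and then 36.1, 49.3 and 54.1 CPM (2.95 ± 0.32), and Fst (follistatin), which binds activin, gave 3.18 and 3.17 CPM and then 9.91, 16.4 and 14.8 CPM (2.11 ± 0.32). The co-receptor Tgfbr3 rose from 186 and 173 CPM to 435, 499 and 521 CPM (1.44 ± 0.11), whereas the ligands Tgfb1 (0.28), Tgfb2 (-0.33) and Tgfb3 (-0.18) did not pass. Of 22 BMP genes 5 were higher (22.7%, against 16.7% of all genes tested) and 4 lower (18.2%, against 15%). The ligands Gdf10 (110 and 103 CPM, then 25.1, 24.3 and 27.2 CPM, -2.06 ± 0.09) and Gdf6 (-1.37 ± 0.23) led the lower. The antagonist Chrdl1 (1.03 ± 0.18) and the target Id2 (1.02 ± 0.16) led the higher. Without either Tcf21 P7 library 2 BMP genes were higher and 2 lower, 3 were higher without Tcf21 P30 replicate 3, and 2 were lower without replicate 2 or 3. Of 30 Wnt genes 9 were lower (30%, against 15% of all genes tested) and 6 higher (20%, against 16.7%). The ligand Wnt11 rose from 12.8 and 10.6 CPM to 49.7, 78.6 and 65.6 CPM (2.47 ± 0.21) and the antagonist Sfrp4 by 2.35 ± 0.22. Another antagonist, Sfrp2, fell from 468 and 434 CPM to 117, 155 and 134 CPM (-1.74 ± 0.19), and the receptor Fzd8 from 167 and 156 CPM to 43.2, 52.1 and 49.1 CPM (-1.75 ± 0.10). The common target gene Axin2 differed by 0.01 and did not pass.

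Transcripts of other cells of the heart were present at both ages. Macrophage markers were lower in 14 of 17 genes, with a median of -1.63: Cx3cr1, a chemokine receptor, gave 108 and 94.5 CPM and then 25.6, 12.4 and 16.9 CPM (-2.47 ± 0.27), and Ms4a7 (-2.20 ± 0.31), Adgre1 (-1.89 ± 0.21) and Tyrobp (-1.84 ± 0.24) fell. The Postn P7 libraries, at 433 and 550 CPM in sum, lay near Tcf21 P30 and not near Tcf21 P7. No endothelial marker of 15 was called by edgeR, 1 had an unadjusted p under 0.05, DESeq2 called 1 higher and limma-voom none. The count depended on the fit: edgeR called 11 higher without the filter on low counts and 1 with the replicate number as a block. One endothelial gene was higher and 1 lower without Tcf21 P30 replicate 1, and 1 was higher without replicate 2. Tek stood at 450 and 432 CPM and then at 540, 496 and 486 CPM. Of 12 pericyte markers Pdgfrb was higher (431 and 409 CPM, then 588, 603 and 564 CPM, 0.48 ± 0.09). That call was lost without Tcf21 P7 replicate 1 (adjusted p = 0.070) or 2 (0.10), and without Tcf21 P30 replicate 1, which held the most pericyte transcripts of its age, 6 pericyte markers were lower. Without the filter on low counts 4 were higher and 4 lower.

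Of 17 cardiomyocyte markers 5 were lower, Tnni1, Myl7 (-2.26 ± 0.28), Myl3 (-1.55 ± 0.39), Tnnc1 (-1.29 ± 0.36) and Ckm (-1.26). Their sum overlapped between the ages, at 1737 and 1571 CPM and then 1608, 842 and 907 CPM, while the libraries of the ages did not overlap for Tnni1 (37.6 and 34.6 CPM, then 0.0631, 0.380 and 0.110 CPM). DESeq2 called 8 lower, and edgeR without the filter on low counts 11 lower and 3 higher. Without Tcf21 P30 replicate 1, 10 were lower, without Tcf21 P7 replicate 1 or 2, 3 or 2, and without Tcf21 P30 replicate 3, 3. Myl3 (adjusted p = 0.13 each) and Tnnc1 (0.16 each) lost their calls without Tcf21 P7 replicate 1 or 2, Myl3 without Tcf21 P30 replicate 3 (0.084) Tnnc1 without replicate 2 (0.095) or 3 (0.10), and Ckm without Tcf21 P7 replicate 2 (0.070). Epicardial and mesothelial markers summed to 746 and 735 CPM and then to between 172 and 188 CPM, most of it Aldh1a2. Tbx18, a transcription factor of the epicardium, was the other of 11 that was lower (92.4 and 87.1 CPM, then 35.8, 28.5 and 48.2 CPM, -1.26 ± 0.25), a call lost without Tcf21 P7 replicate 1 (0.064) or 2 (0.054), and 4 were lower without Tcf21 P30 replicate 1. Without the filter on low counts 10 of these markers were lower. The mesothelial genes Msln (7.33 and 6.35 CPM, then 2.15, 0 and 0 CPM) and Upk3b (6.65 and 5.42 CPM, then 1.83, 0.190 and 0 CPM) were close to the limit of counting in Tcf21 P30 replicates 2 and 3. The Postn P7 libraries gave 17.6 and 0 CPM for Msln and 20.4 and 0 CPM for Upk3b.

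Of 9 Schwann cell and glia markers 2 were higher, among them Cdh19 (12.2 and 9.06 CPM, then 36.2, 41.9 and 42.1 CPM, 1.91 ± 0.17), and Ngfr was lower (10.3 and 11 CPM, then 1.26, 1.71 and 2.20 CPM, -2.62 ± 0.23), while Sox10, which defines these cells, was at or below 2.27 CPM in every Tcf21 library. A single marker was higher without Tcf21 P7 replicate 1 or 2. Of 8 lymphocyte markers tested Cd4 was lower, which macrophages also express, and of 7 erythroid markers Slc4a1 was (-3.24 ± 0.98). The call of Cd4 was lost with each of the 5 Tcf21 libraries left out (highest adjusted p = 0.20), and that of Slc4a1 without Tcf21 P7 replicate 1 (0.24) or 2 (0.11) or Tcf21 P30 replicate 2 (0.059) or 3 (0.14).

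Immediate early and dissociation stress genes, which switch on within minutes of handling, were higher in 14 of 25 cases, with a median of 0.99, and summed to 6231 and 6306 CPM and then to between 11540 and 14196 CPM. Fosb gave 20.6 and 21.1 CPM and then 151, 169 and 215 CPM (3.09 ± 0.59), the heat shock gene Hspa1a 15.5 and 13.4 CPM and then 84.0, 67.7 and 62.2 CPM (2.30 ± 0.16), and Zfp36 (2.15 ± 0.36) and Socs3 (2.04 ± 0.45) rose. The Postn P7 libraries summed to 6358 and 12254 CPM, so that libraries of 1 age differed by nearly as much as the ages did. The genes higher numbered 3 or 4 without Tcf21 P7 replicate 1 or 2, and 1 was lower without Tcf21 P30 replicate 1. Fosb (adjusted p = 0.12 and 0.11), Zfp36 (0.052 and 0.056) and Socs3 (0.13 and 0.12) lost their calls in those fits, and Socs3 without Tcf21 P30 replicate 2 (0.055) or 3 (0.052). Chemokines, Il6, Ptgs2, Dusp1 and Cebpd respond to such stress as well, and its part in their increase was not tested.

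**Figure D4:**
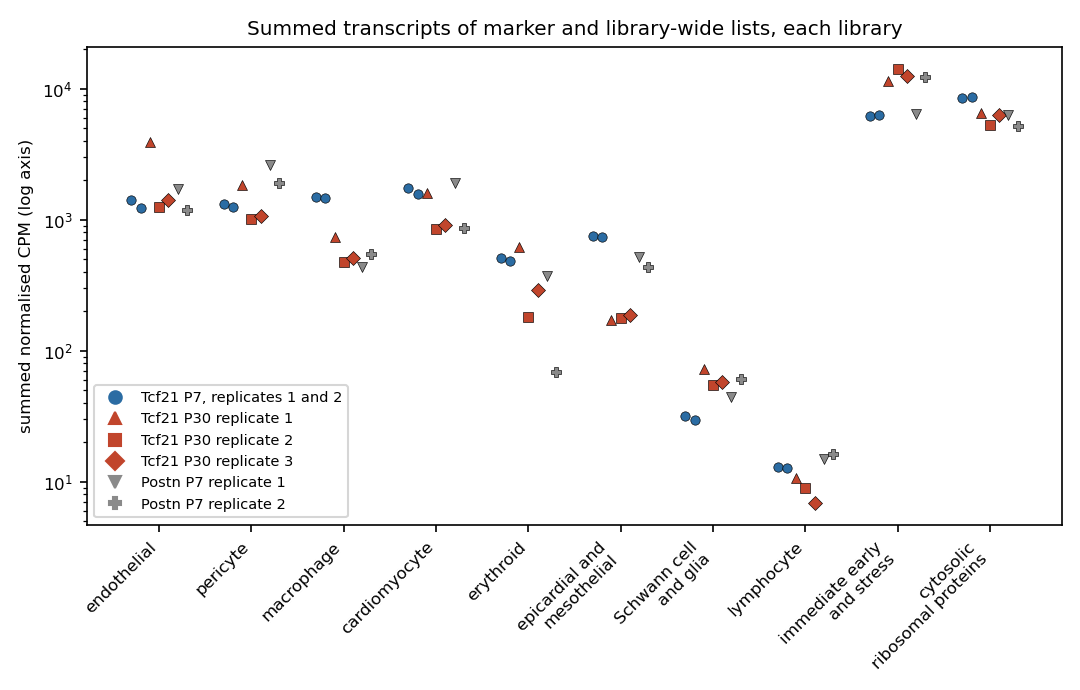
Summed normalised CPM (log axis) of the markers of other cell types, of immediate early and stress genes and of ribosomal proteins in each of the 7 libraries. Tcf21 P30 replicate 1 lies above the other libraries in endothelial transcripts, and both Tcf21 P7 libraries lie above all others in macrophage and ribosomal protein transcripts.

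A further difference lay in nuclear RNA, in genes chosen after their values were seen apart from Malat1. Malat1 gave 354 and 341 CPM in Tcf21 P7 and 1479, 1558 and 1406 CPM in Tcf21 P30 (2.09 ± 0.12). Neat1, the scaffold of paraspeckles, gave 14.9 and 17.0 CPM and then 118, 101 and 119 CPM (2.82 ± 0.15). Kcnq1ot1 (4.15 and 6.46 CPM, then 47.1, 28.8 and 37.1 CPM, 2.83 ± 0.27) and Firre (9.55 and 8.71 CPM, then 45.5, 43.2 and 41.7 CPM, 2.25 ± 0.13) rose likewise. In the Postn P7 libraries, of the same age as Tcf21 P7, Malat1 stood at 1161 and 1374 CPM, Neat1 at 54.0 and 42.4 CPM, Kcnq1ot1 at 38.9 and 40.5 CPM and Firre at 39.9 and 48.4 CPM. All 4 were thus lower in Tcf21 P7 than in either other group. Among 612 provisional gene models (class TEC, awaiting experimental evidence) 197 were higher and 18 lower, with a median of 1.61, and among 65 models inside introns 22 were higher. Models with few counts can pass the filter through the group where they are high. In a fit of the Tcf21 libraries alone 493 TEC models were tested, with a median of 1.41. Of the 68 TEC models with at least 10 CPM in 2 libraries, 13 were higher and 9 lower, with a median of 0.02. In that fit 2326 of all 11228 genes were higher and 2082 lower. Whether RNA preparation differed between the groups was not tested.

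Hearts of both sexes were pooled, and 3 sex-linked genes were chosen after their values were seen. On the X chromosome as a whole 103 of 559 genes tested were higher and 102 lower, against 2952 and 2652 of all 17636 genes tested. Xist, the RNA of the inactive X chromosome, gave 27.7 and 30.9 CPM and then 101, 83.8 and 119 CPM (1.79 ± 0.39, adjusted p = 0.019; highest adjusted p of 0.13 with 1 library left out). Kdm5d, on the Y chromosome, gave 12.8 and 12.6 CPM and then 6.25, 3.61 and 3.35 CPM (-1.53 ± 0.26, adjusted p = 0.0034). Ddx3y, also on the Y chromosome, gave 32.8 and 38.5 CPM and then 36.0, 13.0 and 17.5 CPM and did not pass (adjusted p = 0.29). The share of each sex in a library was not given, and its part in the differences was not tested.

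**Figure D5:**
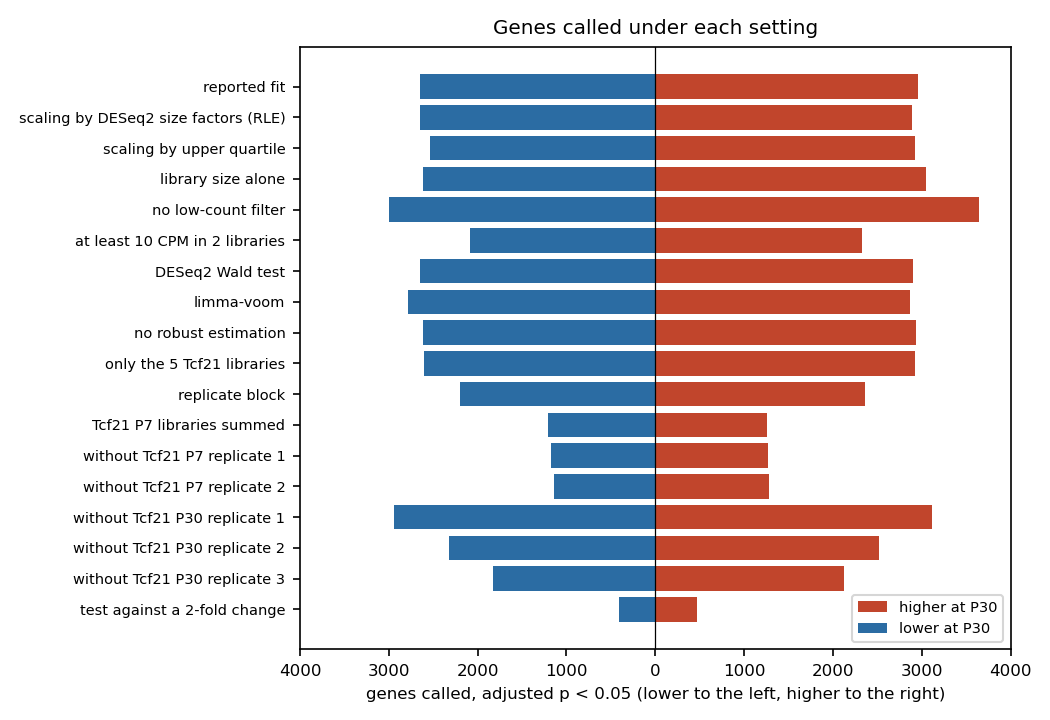
Number of genes called higher (red, to the right) and lower (blue, to the left) at 30 days in the reported fit and in each alternative of scaling, filter, test and libraries used. Most alternatives lie near the reported 2952 and 2652 genes, and those with a single Tcf21 P7 library lie between 1142 and 1276 in each direction.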

How the data were processed

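The authors deposited raw counts per gene symbol for 7 libraries, 1 column each, with no normalization. STAR and the build GRCm38 are named per the submitters' processing notes; the counting program, annotation release and strand setting are not given in the sources used here. Counts were filtered with edgeR's filterByExpr (17636 of 54735 symbols remained), scaled by TMM and fitted with a mean per group over all 7 libraries (edgeR 4.0.16, R 4.3.3). Tcf21 P30 was compared with Tcf21 P7 by the robust quasi-likelihood F-test with Benjamini-Hochberg adjustment over all genes tested and a threshold of 0.05. Alternatives used limma 3.58.1 and DESeq2 1.42.0. Standard errors were derived from the log2 change and its F statistic. Coordinates came from a GENCODE annotation of GRCm38, which matched 17569 of the tested symbols by name. On simulated data of 17636 genes, the test called 5 of 70 genes altered by 1.5-fold, 20 of 60 altered by 2-fold, 55 of 70 altered by 4-fold, and 11 of 17436 left unaltered. The simulation altered a far smaller share of genes than the 31.8% called here. Its rates therefore do not measure how many changes the reported fit detects.

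The members of the 46 gene lists, 955 tested of 984, were chosen with earlier results of these data known. Genes were named by a rule: Tcf21, Postn, Esr1 and Pdgfra; the 15 largest increases and decreases of called genes whose ages did not overlap and whose higher mean reached 10 CPM, leaving out predicted models and pseudogene symbols; the 8 largest gains and losses in CPM; and, per list, up to 4 called members with the largest change and at least 5 CPM, or its most expressed member where none was called. The rule named 192 genes, of which 189 were called. Other genes named in the text were chosen after their values were seen. Where 1 library remained in an arm, its spread was taken from the other groups. A few genes that the rule names are not reported here.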

Additional observations from a re-analysis of the deposited data

How the results depend on the processing

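No named gene changed direction while called under any alternative. The test against a 2-fold change called 877 genes, 472 higher and 405 lower, and the Tcf21 P7 libraries summed to 1 gave 2463, 1260 higher and 1203 lower. Leaving out 1 Tcf21 library at a time gave 2418 to 6063 genes, 1272 to 3120 of them higher and 1142 to 2943 lower, with the lowest totals when a Tcf21 P7 library was left out. The cause was not tested beyond the smaller number of libraries. All other alternatives were within 1.5 times of the reported counts: 5540 genes with DESeq2 size factors, 5459 with upper-quartile factors, 5661 by library size alone, 6636 of 33172 without the filter, 4408 of 11228 with at least 10 CPM in 2 libraries, 5554 with DESeq2, 5647 with limma-voom, 5546 without robust estimation and 5534 in the Tcf21 libraries alone. With the replicate number as a block 4553 genes were called, 2359 higher and 2194 lower. Same-numbered libraries correlated in their deviations from the group mean by 0.050 and 0.040. The deviations of 2 Tcf21 P7 libraries mirror each other, so these values cannot decide whether the numbers pair the libraries. Of the 189 called named genes, 188, 187 and 185 were called under the other scalings, 184 with limma-voom, 182 with the block and 147 without either Tcf21 P7 library. Without the filter, further list counts moved by over 1.5 times: 8 fibroblast identity, 5 collagen processing, 9 lipid handling, 9 BMP and 4 Schwann cell genes were higher, and 5 basement membrane, 4 contractile, 8 neurotrophic and 4 erythroid genes were lower. DESeq2 called 4 contractile genes lower and 3 imprinted genes higher. With the block, 5 proteoglycan genes were higher and 1 lower, 2 BMP genes were lower and 1 lysosomal gene was.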
